A study of Mus musculus with 8 samples.

Results

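The genes described are 43 genes for proteins that the liver secretes into blood plasma, as measured in the pancreas of NOD mice. They are carriers, apolipoproteins, coagulation factors, protease inhibitors, complement proteins and serum amyloid A. They were chosen by name, with the NOD ratios of these arrays already known, and older and newer symbols both counted. Of the 43 genes, 42 had a probe on the array (54 probes in all) and *Serpina1a* had none, out of 21597 gene symbols on the array. Their NOD ratios are therefore given as a description. A test over all genes included them, and its calls are printed below but not read as a result about the members.

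Each of 8 arrays compared the pancreas of 1 female NOD mouse, 12 weeks old, with a single pool of pancreas RNA from 8 NOD.B10 mice, which the labels call age-matched. NOD mice develop autoimmune diabetes, and NOD.B10 is a congenic strain that carries another H2 haplotype on the NOD background and stays free of diabetes. The NOD mouse was labeled with Cy5 (red) and the pool with Cy3 (green), with no swap of the dyes, so that strain and dye cannot be told apart. The pool was measured 8 times, and its spread over arrays is technical. Whether the 8 pooled pancreata resembled each other is not seen in these data.

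Plasma proteins are made mostly by hepatocytes, which secrete albumin, the fibrinogen chains, apolipoproteins and most protease inhibitors directly into the blood. Liver and pancreas arise from neighboring parts of the gut tube, lie next to each other in the adult, and share transcription factors such as HNF4A and FOXA2. Some of these genes are also used by other cells that a pancreas sample can hold: macrophages and duct cells make C3, adipocytes make RBP4 and haptoglobin, and macrophages make APOC1. In whole pancreas, fewer cells of a type and less RNA per cell cannot be told apart.

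The upstream bases of 6 members are shown because they hold the extremes of the data. With 1 probe per gene, the brightest over red and green, *Fgg*, *Ahsg*, *Fgb* and *Alb1* had the lowest NOD ratios together with *Serpinc1*. A second probe of *Serpina3k* was also low, at -3.09. *C3* and *Vtn* had strong signals and deposited ratios near 0. Each run gives the 250 bases before the RefSeq start of the gene on GRCm38.p6, 5′ to 3′ on the strand of the gene. Capitals mark matches to the C/EBP motif TTGCNNAA or to the TATA box TATAAA on either strand, and overlapping matches run together.

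Fgg promoter (chr3:83007474-83007723, plus strand): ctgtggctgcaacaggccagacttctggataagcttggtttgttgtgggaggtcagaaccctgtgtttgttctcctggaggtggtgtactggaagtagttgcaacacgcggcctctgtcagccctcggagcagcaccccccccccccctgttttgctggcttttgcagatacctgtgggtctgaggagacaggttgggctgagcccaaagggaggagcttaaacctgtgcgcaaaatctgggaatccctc
Ahsg promoter (chr16:22891765-22892014, plus strand): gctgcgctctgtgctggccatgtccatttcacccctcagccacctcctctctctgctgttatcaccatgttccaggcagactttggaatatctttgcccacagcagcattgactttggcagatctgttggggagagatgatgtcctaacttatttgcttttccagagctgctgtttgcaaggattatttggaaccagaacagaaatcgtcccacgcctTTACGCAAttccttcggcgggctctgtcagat
Fgb promoter (chr3:83049864-83050113, minus strand): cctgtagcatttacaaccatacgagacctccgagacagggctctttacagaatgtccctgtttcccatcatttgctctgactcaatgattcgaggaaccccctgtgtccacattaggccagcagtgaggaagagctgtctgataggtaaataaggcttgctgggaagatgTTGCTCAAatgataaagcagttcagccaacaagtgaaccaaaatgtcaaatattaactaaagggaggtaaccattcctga
Alb1 promoter (chr5:90460620-90460869, plus strand): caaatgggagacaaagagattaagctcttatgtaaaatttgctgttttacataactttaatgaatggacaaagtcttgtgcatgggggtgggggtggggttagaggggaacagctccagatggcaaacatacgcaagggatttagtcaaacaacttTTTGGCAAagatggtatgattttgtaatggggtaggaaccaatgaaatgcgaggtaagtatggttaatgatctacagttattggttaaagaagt
C3 promoter (chr17:57228137-57228386, minus strand): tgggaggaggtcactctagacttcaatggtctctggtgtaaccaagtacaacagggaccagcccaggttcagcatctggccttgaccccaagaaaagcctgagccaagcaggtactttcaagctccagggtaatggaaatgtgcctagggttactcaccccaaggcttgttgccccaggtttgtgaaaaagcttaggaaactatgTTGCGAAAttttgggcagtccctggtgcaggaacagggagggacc
Vtn promoter (chr11:78498870-78499119, plus strand): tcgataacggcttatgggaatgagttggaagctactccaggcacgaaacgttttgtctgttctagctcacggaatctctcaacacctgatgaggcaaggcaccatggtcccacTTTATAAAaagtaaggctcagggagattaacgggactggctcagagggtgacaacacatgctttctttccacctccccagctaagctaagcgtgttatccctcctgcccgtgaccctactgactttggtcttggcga

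C/EBP proteins are a family of transcription factors that act on many hepatocyte genes. Promoters of 33 members were in the RefSeq table, 36 in all, each of 300 bases with the 50 bases after the start included. The C/EBP motif was present in 18 of the 36 (50%), compared to 10.8% of 32851 promoters of all genes. *Ahsg*, *Fgb* and *Alb1*, with NOD means of -3.21, -3.05 and -2.31 on the log2 scale, each had a match, and so did *C3*, whose mean was 0.06. *Fgg*, which had the lowest mean, had no match to either motif in these letters. The TATA box was present in 9 of the 36 (25%), compared to 13.6% of all promoters, and the pair in *Vtn* overlap. The HNF4 motif CAAAGTCC matched none of the 36, while it matched 1.42% of all promoters. A match is a description of the letters and not a binding site.

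The samples were pancreas by their markers. Of 18 acinar genes on the array, 17 had a red signal well above background on all 8 arrays, and their median pool signal was at percentile 99.9 of all genes. Red was the weaker dye, with 21.6% to 35.3% of spots well above background on the 8 arrays, compared to 57.6% to 60.7% for green. Where the red signal was too close to background, the feature extraction software put in a stand-in value. The typical stand-in value was 20.2 to 40.9 intensity units, depending on the array, so a ratio with a stand-in value is set by the background and by the pool. In the members, a red stand-in value above the green signal came with a deposited ratio of 0, as for *Kng1* in mouse 7 (red 133, green 67.7). A red stand-in value could thus give a ratio below 0 but not above it. The arrays lay on 2 slides of 4, and the grids of mice 5, 6 and 7, all on slide 2, were not rated good by the software. Replicate spots also varied more on slide 2, with a median red coefficient of variation of 38.2% to 63.5% against 16.1% to 24.8% on slide 1.

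Most members had lower signals in NOD pancreas than in the pool. The mean log2 ratio was below 0 in 36 of 42 genes and above 0 in 6, and it ranged from -4.0 (*Fgg*) to 0.50 (*Azgp1*). The median over members was -0.83, compared to -0.08 over the 18396 genes tested. The signal was lower in all 8 mice for 22 members, while 10.1% of all genes tested did so. At least a 2-fold lower mean was found in 17 members, and in 2.68% of all genes tested. In the limma test over all genes, a call needed a mean that differed 2-fold or more and an adjusted p below 0.01, and 13 of the 41 members tested were called lower, where 1.30% of all genes were called lower. The limma test called 0 members higher (1 at an unadjusted p under 0.05), and 0.391% of all genes. Red stand-in values, found on 4 or more arrays in 20 members, could not give a ratio above 0, so the direction of these counts was partly fixed. Since the members were chosen from this contrast, nothing is read from these counts, and the call is used below only to say which genes passed. *Mup1* was not tested, since the red signal of its brightest probe was below 25 on most arrays.

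**Figure D1:**
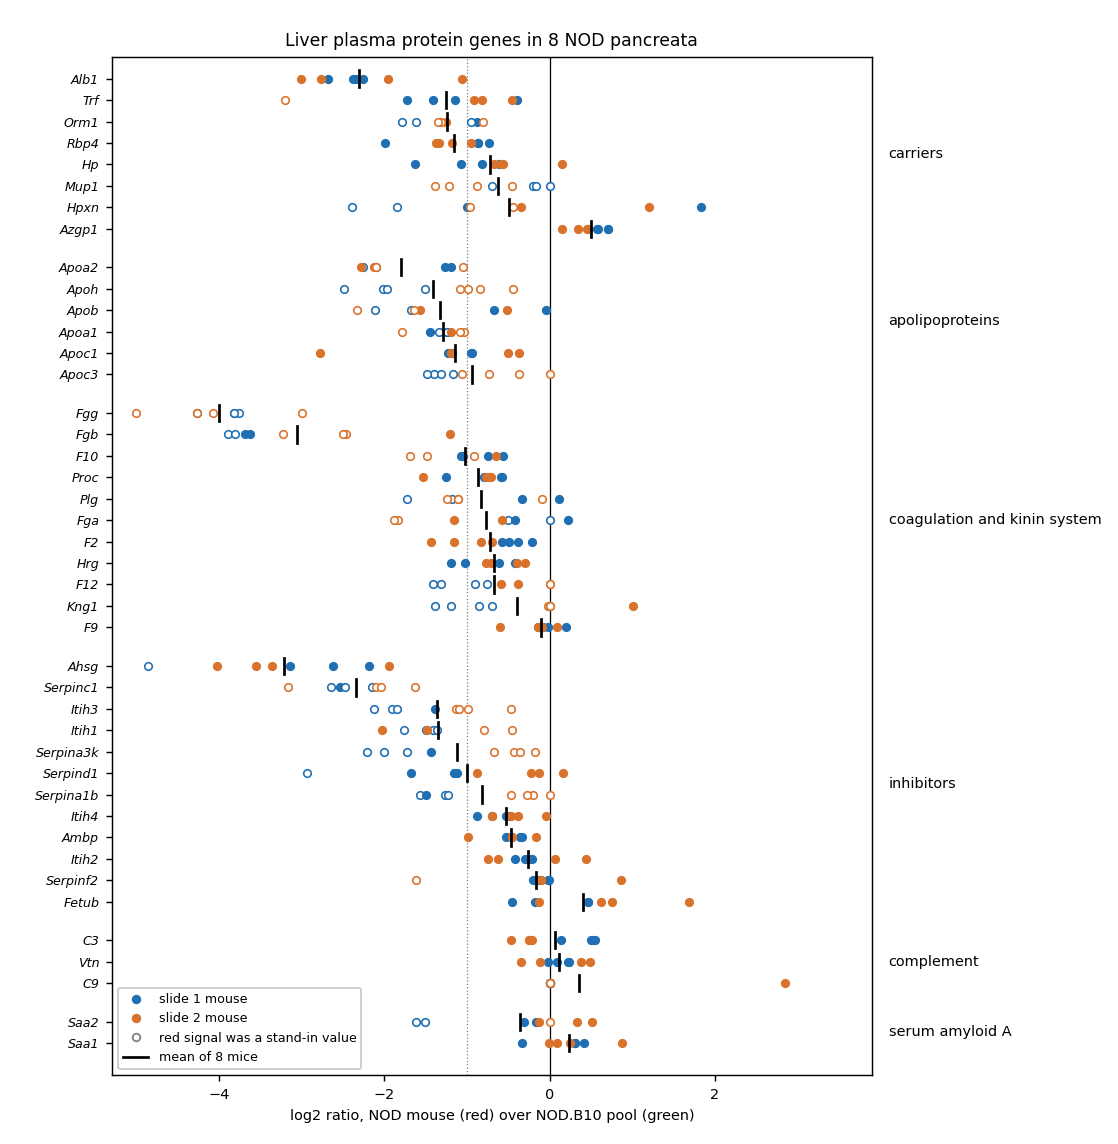
The horizontal axis is the log2 ratio of each NOD mouse over the NOD.B10 pool, and each row is 1 of 42 genes, ordered by mean within its role. Blue and orange points are mice of slide 1 and slide 2, open points had a red stand-in value, black bars are means of 8 mice, and the dotted line is a 2-fold lower signal. *Fgg* lies lowest with 8 open points, and the complement genes lie around or above 0.

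Carriers bind and transport ions, lipids, heme or hormones in plasma. *Alb1* encodes albumin, the most abundant plasma protein (probe at chr5:91547772-91547831 on mm8). Its green signal in the pool was 2413 ± 409 (SD, n = 8 arrays), and its red signals in the NOD mice were 271, 479 and 962 (lowest, median and highest). No red signal reached the lowest green signal of 1846, and no red value was a stand-in. The green range here and below is the technical spread of 1 pool, so an overlap between NOD and NOD.B10 mice is not seen. The mean log2 ratio was -2.31 ± 0.60 (SD, n = 8 mice), or 4.96-fold lower, with single mice between -3.01 and -1.07, and *Alb1* passed the test. *Rbp4*, the plasma carrier of retinol, was the member that passed the test with a red signal well above background on all 8 arrays. Its green signals were 1362 to 2206, and its red signals were 441, 900 and 1160 (lowest, median and highest), below the green range in every mouse. The mean log2 ratio of *Rbp4* was -1.16 ± 0.41 (SD, n = 8), with mice between -1.99 and -0.73.

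*Orm1*, an acute phase carrier of lipophilic molecules, passed the test at -1.25 ± 0.35 (SD, n = 8), but 6 of its 8 red values were stand-ins. *Trf* encodes transferrin, the iron carrier, and had a mean log2 ratio of -1.26 ± 0.91 without passing the test. All 8 mice were below the pool for *Trf*, yet they spread from -3.20 to -0.40. *Hp*, haptoglobin, which binds free hemoglobin, was at -0.73 ± 0.50 and lower in 7 of 8 mice. *Hpxn*, hemopexin, the heme carrier, varied most of all members, with a mean of -0.50 ± 1.43. For *Hpxn*, mouse 3 had a red signal of 1008 and mouse 8 of 439, both above the green signals of 192 to 283, while the remaining mice lay between 42.6 and 187. *Azgp1*, a zinc-binding glycoprotein related to class I molecules and made by several epithelia, was the single carrier above the pool, at 0.50 ± 0.19, higher in 8 of 8 mice. The green signal of *Azgp1* fell into a high set of 5 arrays (2305 to 2792) and a low set of 3 arrays (451 to 810, mice 5, 7 and 8), although the pool RNA was the same. The red signal of these 3 arrays was low as well (623 to 1024), and their log2 ratios of 0.34, 0.45 and 0.47 lay within those of the other arrays (0.14 to 0.71). *Mup1*, a major urinary protein with many near-identical copies, stayed near background in both dyes, with green well above background on 1 array and a mean of -0.63 on 8 red stand-in values.

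Apolipoproteins carry lipids in plasma, and all 6 on the list had a mean below 0, between -1.80 and -0.94 with a median of -1.31. *Apoa2*, a main protein of high density lipoprotein, had green signals of 104 to 151 and red signals of 26.7, 30.5 and 65.6 (lowest, median and highest). Every red signal was below the green range, the mean log2 ratio was -1.80 ± 0.53 (SD, n = 8), and *Apoa2* passed the test. *Apoh*, which binds anionic phospholipids, passed at -1.42 ± 0.70, and *Apoa1*, the other main protein of high density lipoprotein, at -1.30 ± 0.24. These 3 genes had no array with red well above background, and 4, 8 and 5 of their red values were stand-ins. *Apob*, the structural protein of low density lipoprotein, was at -1.33 ± 0.81, with mice from -2.34 to -0.05. *Apoc3*, an inhibitor of lipoprotein lipase, was at -0.94 ± 0.53 on 8 stand-in values. *Apoc1* differed from the others in its level, with green signals of 1610 to 2005 and red well above background on 7 arrays. Its red signals were 268, 933 and 1386 (lowest, median and highest), below the green range in every mouse, and its mean log2 ratio was -1.15 ± 0.73 without passing the test.

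The coagulation and kinin genes were below 0 in the mean in 11 of 11, of which *Fga* turned above 0 with normexp and with median-centered signals. Fibrinogen is the precursor of fibrin and consists of 3 chains, encoded by *Fga*, *Fgb* and *Fgg*. *Fgg* (probe at chr3:83100830-83100889 on mm8) had green signals of 450.0 to 647, while its red signals were 20.1, 31.3 and 57.5 (lowest, median and highest). Every red value of *Fgg* was a stand-in, so the mean log2 ratio of -4.0 ± 0.57 (16-fold lower) lay 0.22 above the ratio that the typical stand-in value would give, and it is the size of the fall that the background allowed. *Fgb* (chr3:83128339-83128398) had green signals of 513 to 784 and red signals of 37.1, 69.6 and 237, with 5 stand-in values. Its mean was -3.05 ± 0.93, every red signal was below the green range, and mouse 5 was the highest at -1.21. *Fga* (chr3:83117683-83117742) lies between them, but its green signal was 51.1 ± 9.77 and its mean log2 ratio was -0.77 ± 0.79, with 6 of 8 mice below the pool. With median-centered signals *Fga* was at 0.47 and with normexp at 0.05, both of which changed background handling together with normalization.

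Of the other coagulation genes, *F10*, the protease that forms thrombin, passed the test at -1.02 ± 0.40, with red well above background on 0 arrays. *F2*, prothrombin, was measured well in both dyes, with green signals of 1416 to 2121 and red signals of 713, 1115 and 1637 (lowest, median and highest). The *F2* signals overlapped, but each mouse was below the pool on its own array, with a mean log2 ratio of -0.73 ± 0.41. *Proc*, protein C, an anticoagulant protease, was at -0.87 ± 0.34 and lower in 8 of 8 mice. *Hrg*, a histidine-rich plasma protein, was at -0.68 ± 0.31 and also lower in 8 of 8 mice. *Plg*, plasminogen, was at -0.84 ± 0.65, *F12* at -0.67 ± 0.54 and *Kng1*, kininogen, at -0.39 ± 0.79, all with red well above background on 0 arrays. *F9*, the factor whose loss causes hemophilia B, was close to the pool at -0.10 ± 0.24, with red signals of 1389 to 1976 and green signals of 1295 to 2114.

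Inhibitors include serpins, which trap serine proteases, the heavy chains of the inter-alpha inhibitors, and the fetuins. Of 12 with a probe, 11 were below 0 in the mean, of which *Serpinf2* turned above 0 without mouse 6. *Ahsg*, fetuin-A, which keeps calcium phosphate in solution (chr16:22814676-22814735 on mm8), had green signals of 1153 to 1577. Its red signals were 41.5, 148 and 312 (lowest, median and highest), and 1 of them was a stand-in value. All 8 mice were far below the green range, and the mean log2 ratio of *Ahsg* was -3.21 ± 0.97, or 9.28-fold lower. Red was well above background on 5 arrays for *Ahsg* (mice 2 to 6), with log2 ratios from -3.56 to -1.95, while the lowest value, -4.86 in mouse 1, was the stand-in.

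*Serpinc1*, antithrombin, passed the test at -2.35 ± 0.47, with 7 stand-in values and a mean 0.25 above the ratio at the typical stand-in value. Its weaker second probe, with 2 stand-in values, was at -0.83 ± 0.81 and did not pass. *Itih3* and *Itih1* passed at -1.37 ± 0.56 and -1.35 ± 0.51, also mostly on stand-in values. *Serpina3k*, a serpin that belongs to an expanded mouse family, was at -1.13 ± 0.81 by the probe that was brighter over both dyes and *Serpind1*, heparin cofactor II, at -1.0 ± 1.0, and neither passed. The other *Serpina3k* probe, which was the brighter one in the pool (green 321 against 209), was at -3.09 ± 0.61 and passed the test. *Serpina1b* encodes an alpha-1-antitrypsin and was at -0.82 ± 0.64, but its near-identical copies, *Serpina1a* among them, could share this probe. *Itih4*, *Ambp* and *Itih2* had red well above background on all 8 arrays and were nearer to the pool, at -0.52 ± 0.25, -0.47 ± 0.24 and -0.26 ± 0.38. For *Ambp*, which encodes the light chain bikunin and alpha-1-microglobulin, green signals were 3778 to 5101 and red signals 2099 to 3888. *Serpinf2*, the plasmin inhibitor, was at -0.17 ± 0.68, and lower in 7 of 8 mice with a median of -0.11. Its mean was 0.04 without mouse 6, whose red value was a stand-in, and -0.32 without mouse 8, which was at 0.86. *Fetub*, fetuin-B, was the inhibitor above the pool, at 0.40 ± 0.67, with red signals of 308 to 1271 and green signals of 369 to 498.

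None of the 3 complement genes had a mean below 0, but *C3* was at -0.23 with normexp and -0.35 with median-centered signals. *C3*, the central complement component, had green signals of 7980 to 11596 and red signals of 6185, 10037 and 16019 (lowest, median and highest). These overlapped, and the mean log2 ratio was 0.06 ± 0.41. *Vtn*, vitronectin, an adhesion protein that also blocks the complement pore, had a green signal of 107198 ± 8802, at percentile 99.8 of all genes. Its red signals were 72398, 116223 and 161732, which overlapped with the green signals, and its mean was 0.11 ± 0.27. With normexp the mean of *Vtn* was 0.67, a move of more than its SD. *C9*, the pore-forming component, was not above background in the pool on any array. Its mean of 0.36 came from mouse 5 alone, at 2.85, with the remaining 7 mice at 0 on red stand-in values. With the ratio of the processed signals the mean of *C9* was 1.38.

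The serum amyloid A genes, which rise sharply in liver during inflammation, did not move together with the lowest members. *Saa1* was at 0.24 ± 0.35 and *Saa2* at -0.36 ± 0.79, and since these copies are nearly identical, their probes may share transcripts. With median-centered signals *Saa1* was at -0.30.

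The size of the fall was then related to the signal of the pool. Intensities of different probes do not give amounts of different transcripts, so the level is used only as a rank. Over the 42 members the mean log2 ratio hardly followed the green signal, with a Pearson's r of 0.05 and a Spearman's rho of 0.12, and over all genes tested r was -0.04. The members fell into 3 sets by their red signal. In 10 members with red well above background on all 8 arrays, green signals were 436 to 107198 and the median log2 ratio was -0.18. In 11 members with red well above background on 1 to 7 arrays, the median was -0.87. In 21 members with red well above background on 0 arrays, the median was -1.13 and green signals were 9.79 to 627. Within these 21, the ratio was lower the brighter the pool, with r of -0.86 and rho of -0.77. Of these 21, 10 lay within 0.5 of the ratio at the typical stand-in value, where the ratio is set by the pool signal, *C9* lay 1.15 below it, and 5 (*Serpina3k*, *Fgb*, *Kng1*, *Apoh* and *Saa2*) lay 1.10 to 1.79 above it. Of the 13 members that passed the test, 10 had red well above background on 0 arrays, 2 on some arrays (*Ahsg* and *Alb1*) and 1 on all (*Rbp4*). All points share the same arrays and pool, and red detection is itself part of the ratio, so these numbers carry no p.

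**Figure D2:**
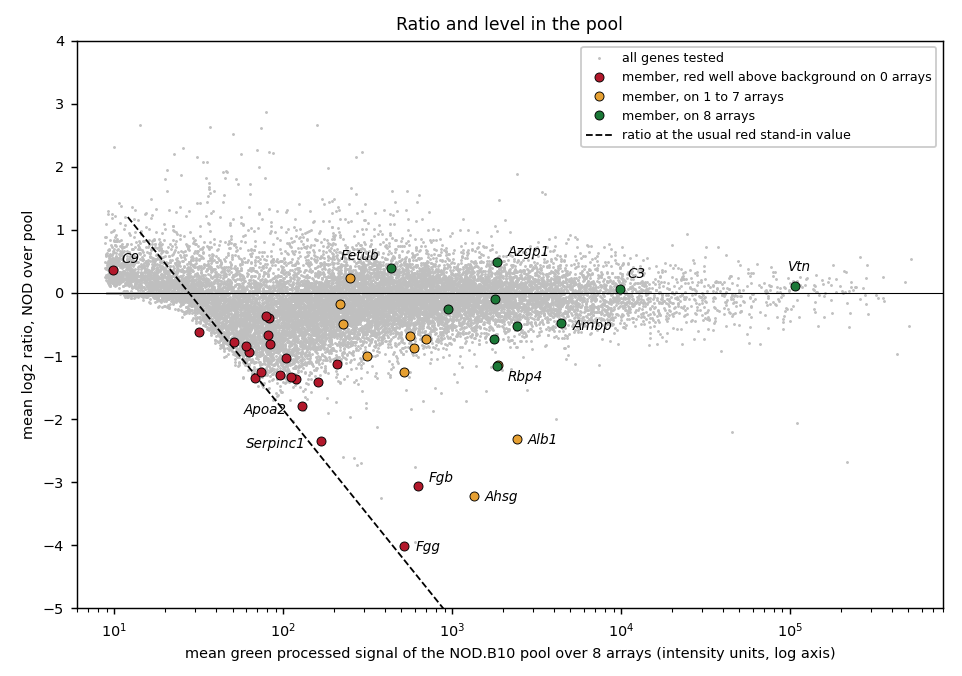
The horizontal axis is the mean green signal of the pool on a log scale, and the vertical axis is the mean log2 ratio of 8 NOD mice. Grey points are all genes tested, colored points are the 42 members by the number of arrays with red well above background, and the dashed line is the ratio at the typical red stand-in value. *Fgg* and *Serpinc1* lie 0.22 and 0.25 above the line, *Ahsg* and *Alb1* lie 2.38 and 4.12 above it, and the 10 members with red on all arrays lie between -1.16 and 0.50.

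The most direct view of the fall comes from members that were bright in the pool. *Ahsg*, *Alb1*, *Apoc1* and *Rbp4* had mean green signals of 1338 to 2413 and no NOD mouse inside the green range. *F2*, *F9*, *Itih4*, *Ambp* and *Azgp1* had pool signals of the same order or higher and stayed between -0.73 and 0.50. *Alb1* and *Itih4*, with green means of 2413 and 2414, differed in their ratios by more than the spread between mice, at -2.31 ± 0.60 and -0.52 ± 0.25. *Rbp4* and *Apoc1* overlapped with *F2* in the ratios of single mice.

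**Figure D3:**
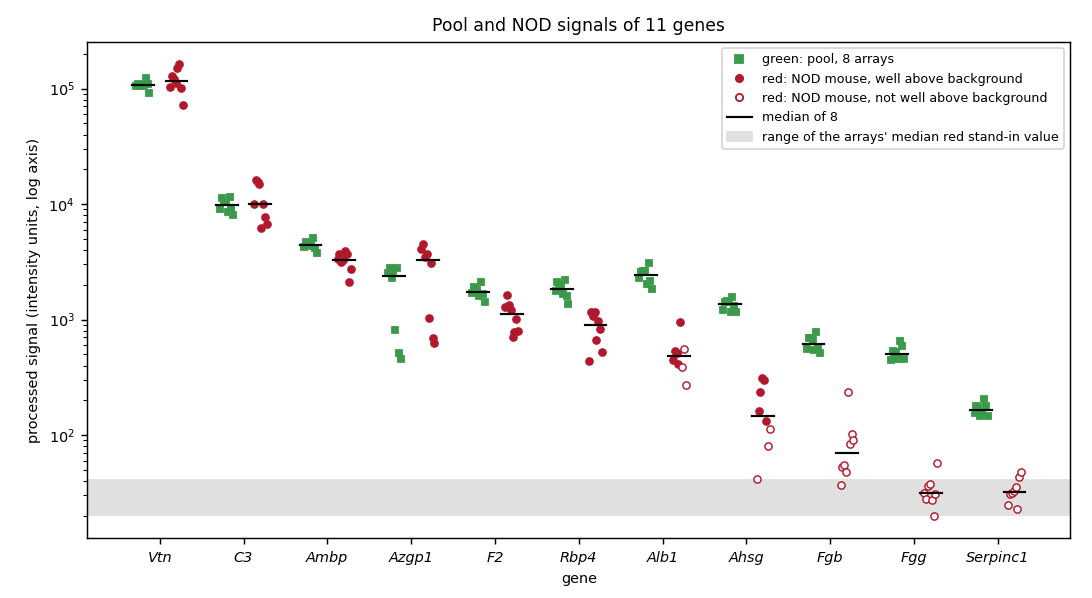
The vertical axis is the processed signal on a log scale for 11 members, with green squares for the pool on 8 arrays, red circles for the 8 NOD mice (open where not well above background), bars for medians and a grey band for the range of typical red stand-in values. Red lies below green in *Rbp4*, *Alb1*, *Ahsg*, *Fgb*, *Fgg* and *Serpinc1*, and overlaps green in *Vtn*, *C3* and *F2*.

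Genes known mainly from liver and genes also known from other cells had like medians, but the lowest means were not among the latter. The 29 genes known mainly from liver had a median of -0.77, and 10 of the 28 tested passed, where 1.30% of all genes were called lower. The 10 genes also known from other cells that a pancreas can hold, such as macrophages, adipocytes or ducts, had a median of -0.77 as well, but their means reached down only to -1.26 (*Trf*), and 2 passed (*Orm1* and *Rbp4*). The 3 genes shared by liver and gut (*Apoa1*, *Apob* and *Apoc3*) had a median of -1.30, and 1 passed. Since the members were chosen from this contrast, the counts that passed are not compared between classes. Every member lower than *Trf* was of the liver or the liver and gut class, which together held most of the members. Background also limited how low weak genes could go. The ratio at the typical stand-in value was -1.40 for *Orm1*, -1.46 for *Saa2* and -1.58 for *Serpina1b*, and -0.86 for *Fga* of the liver class. Within the liver class the ratios covered nearly the whole range, from -4.0 (*Fgg*) to 0.40 (*Fetub*). *Vtn*, *Ambp* and *Itih4* belong to this class by textbook knowledge and yet had strong red signals in every NOD pancreas. Adipocyte genes had a median of -0.63 and leukocyte genes of 0.55, and the part of these cells in the ratios of *Rbp4*, *Hp*, *C3* or *Apoc1* was not tested.

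Some members that neighbor each other on a chromosome differed in their ratios and some did not. On chromosome 3 the fibrinogen genes lie in the order *Fgg*, *Fga*, *Fgb*, with means of -4.0, -0.77 and -3.05. The middle gene had the weakest pool signal of the 3, and its ratio at the typical stand-in value would be -0.86, so a fall as large as that of its neighbors could not have been measured. On chromosome 16 *Ahsg*, *Fetub*, *Hrg* and *Kng1* lie close together in this order, with means of -3.21, 0.40, -0.68 and -0.39. *Ahsg* and *Fetub* are both fetuins, both were measured above background in the pool on all arrays, and their mice did not overlap (-4.86 to -1.95 against -0.46 to 1.68). On chromosome 14 *Itih4*, *Itih3* and *Itih1* were at -0.52, -1.37 and -1.35, the latter pair within the spread between mice. On chromosome 9 *Apoa1* and *Apoc3* were at -1.30 and -0.94, within the spread between mice.

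**Figure D4:**
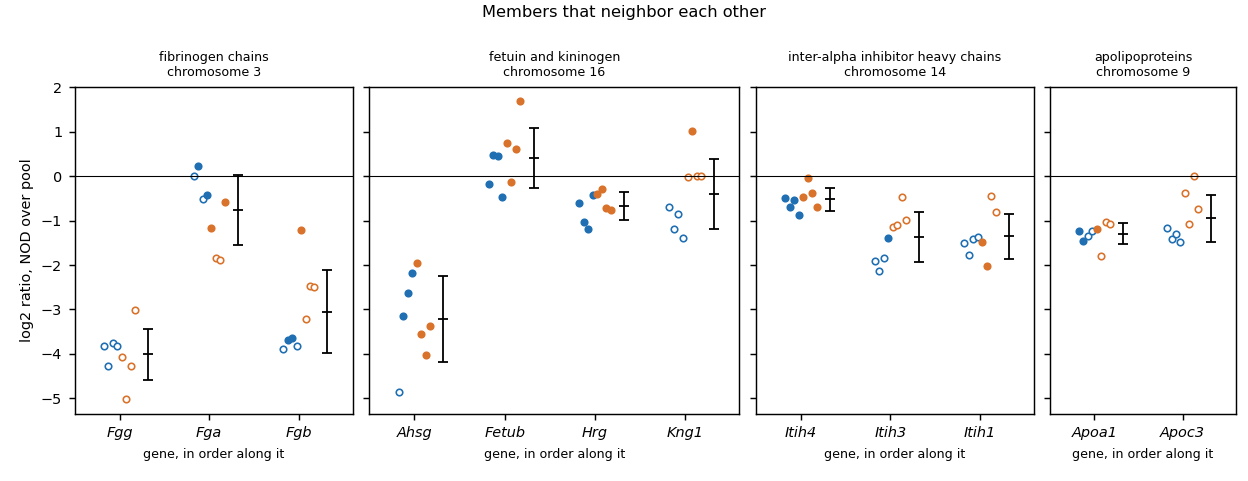
The vertical axis is the log2 ratio of each NOD mouse over the pool for 4 sets of neighboring members, in the order of their probes on the chromosome. Blue and orange points are mice of slide 1 and slide 2, open points had a red stand-in value, and bars give the mean ± SD of 8 mice. In the chromosome 16 set *Ahsg* lies below -1.9 in all mice while *Fetub* lies around 0.40.

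The mice differed in how low the members were. The median over the 42 members was lowest in mouse 4 (-1.24) and highest in mouse 5 (-0.55), while the median of all genes stayed between -0.03 and 0 in each mouse. At least a 2-fold lower signal was found for 24 members in mouse 2 and for 12 in mouse 5. Differences between slides were not used to choose the members, so they were tested. By limma with slide as the factor, 3 of 41 members had an adjusted p under 0.05, compared to 3.87% of all genes. The count was 1 with normexp and 1 without mouse 3 or without mouse 7. *Serpina1b* was at -1.39 on slide 1 and -0.24 on slide 2 (limma adjusted p = 0.013). *Serpina3k* was at -1.85 and -0.41 (limma adjusted p = 0.019), but its other probe was at -3.34 and -2.84 (limma adjusted p = 0.57). *C3* went the other way, from 0.43 on slide 1 to -0.30 on slide 2 (limma adjusted p = 0.027), while its weak second probe was 0.28 higher on slide 2 (limma adjusted p = 0.79). In an exact two-sided permutation of 4 mice against 4, 14 members reached 0.029, the smallest p that this design can give, and 10 of them were higher on slide 2. The mice of the 2 slides did not overlap in 14.4% of all genes. *Fgb* was among them, at -3.76 on slide 1 and -2.35 on slide 2, while *Alb1*, *Ahsg* and *Fgg* moved by 0.22, -0.02 and -0.17. For *Serpina1b* and *Serpina3k* most red values were stand-ins, and the typical stand-in value was 20.2 to 24.5 on slide 1 and 29.0 to 40.9 on slide 2. Slide and mice cannot be told apart.

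Further probes and repeated spots show how much 1 probe can say. The probes of *Serpina3k* lie near each other in the gene and yet differed by more than their SDs. Of 10 members with a second probe, 4 moved by more than their SD with it. *Serpinc1* had a weaker second probe at -0.83 against -2.35. The further *Apob* probes, weak in the pool, were at -0.30 and 0.44 against -1.33, and the second *Mup1* probe was at -0.04 against -0.63. *C3* was spotted 10 times per array, and its log2 ratios within an array had a median SD of 0.11, compared to an SD of 0.41 between mice. *Apoa1* was also spotted 10 times, at a red signal near background, and the median SD within an array was 0.70 compared to 0.24 between mice. Single spots of *Apoa1* are thus uncertain by about this much. The error of a spot was not measured for weak members with 1 spot per array, and *Orm1*, among these, had an SD of 0.35 between mice.

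The size of the fall, more than its direction, moved when background handling and dye normalization were changed together, and which of them moved it was not tested. With normexp background correction, an offset of 50 added to both dyes and loess, 35 of 42 members were below 0 in the mean, 34 of them also below 0 on the deposited ratios, but their median was -0.13 and 1 member, *Alb1*, passed the test. The offset shrinks ratios of weak signals by construction. *Alb1* was then at -1.36, *Ahsg* at -0.99, *Apoc1* at -0.83 and *Rbp4* at -0.81, while *Fgb* was at -0.60 and *Fgg* at -0.50. With median-centered signals the median over members was -0.76, 14 members passed as lower, and *C9* passed as higher at 3.03, under a setting that called 952 of all genes lower and 3176 higher. Only 9 of the 13 members called on the deposited ratios were among these 14: *Itih1* (-0.24), *Apoa1* (-0.81), *Orm1* (-0.69) and *F10* (-0.91) lost their call, and *Trf*, *Apoc1*, *Serpina3k*, *Proc* and *Hrg* gained one. The lowest members were then *Fgg* at -3.82, *Fgb* at -3.64, *Ahsg* at -3.08 and *Alb1* at -2.91. The sign turned for *Fga*, *Mup1* and *C3* under both settings and for *Saa1* under the second. Without the 3 arrays whose grid was not rated good 3 members passed as lower, under a setting that called 23 of all genes lower and 3 higher. With the 4 mice of slide 1 alone the limma test passed 0 members (28 of 41 lower at an unadjusted p under 0.05, compared to 22.8% of all genes), as it passed 0 of all genes. *Kng1*, *Saa2* and *C3* were above 0 on one slide and below 0 on the other.

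Other liver genes, from lists drawn up with the earlier results of these arrays known, were measured beside the members. Of 51 further plasma protein genes tested, 8 were called lower and 1 higher, compared to 1.30% and 0.391% of all genes. The median of this list was -0.30. *Mug1*, a liver proteinase inhibitor of the alpha-2-macroglobulin family, was the lowest at -2.62, and *Fgl1*, a fibrinogen-like hepatokine, was the highest at 1.24, with red well above background on 8 arrays. Of 23 hepatocyte genes for proteins that stay inside the cell, 5 were called lower, compared to 1.30% of all genes, and their median was -0.37. The limma test called 0 of them higher (0 also at an unadjusted p under 0.05). *Fabp1*, the liver fatty acid binding protein, was at -3.95 ± 1.09 with red well above background on 0 arrays, and *Es1*, a carboxylesterase, was at -3.25 ± 0.66. Both lay as low as the lowest members. In the same list *Gnmt* and *Tat*, enzymes of methyl group and tyrosine metabolism, had red well above background on 8 arrays and means of 0.13 ± 0.22 and 0.13 ± 0.39.

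The transcription factors shared with liver had a median of -0.13, and 1 of 13 tested was called higher, compared to 0.391% of all genes. The limma test called 0 of these lower (4 at an unadjusted p under 0.05). *Nr1h4*, the bile acid receptor, was lowest at -1.71 ± 0.95, *Foxa2* was at -0.54 ± 0.16 and *Hnf4a* at 0.73 ± 0.29. *Prox1*, a homeobox factor of liver and pancreas, was the one that passed, at 1.26 ± 0.56. For the cells of the pancreas itself and its infiltrate the limma test made 0 calls in either direction. At an unadjusted p under 0.05, 25.1% of all genes were lower and 10.9% higher. Acinar genes had a median of 0.12, and 6 of 18 tested were higher at an unadjusted p under 0.05. Islet genes had a median of -0.54, with 7 of 15 lower at an unadjusted p under 0.05, and duct genes had a median of -0.09, with 3 of 11 lower and 1 higher. Of the adipocyte genes 5 of 12 were lower and of the leukocyte genes 8 of 17 were higher at that limit. The part of these cell types in the ratios of the members was not tested.

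**Figure D5:**
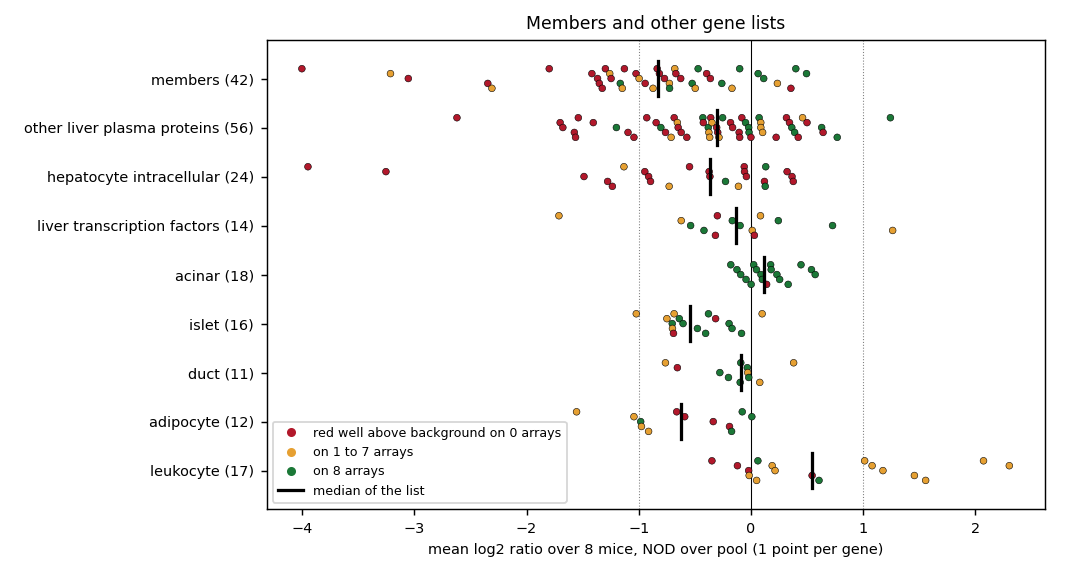
The horizontal axis is the mean log2 ratio of each gene over 8 NOD mice, and each row is a gene list with the number of genes that had a probe. Colors give the number of arrays with red well above background, bars are medians, and dotted lines are 2-fold. The members have the lowest median (-0.83), *Fabp1* and *Es1* lie beside the lowest members, and acinar genes lie within 0.6 of 0.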

How the data were processed

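Pancreas RNA of 8 NOD mice (replicates 1 to 8 by their titles) was hybridized to two-color Agilent mouse arrays against 1 pool of NOD.B10 pancreas RNA. The 8 arrays form 1 group. The authors scanned and quantified them with Agilent Feature Extraction (version 10.7.3.1), which subtracts background and normalizes the dyes. For each spot, the deposited values are a log10 ratio (NOD over pool) and the processed signals of both dyes, which are intensities on a linear scale. They also hold median signals and backgrounds, flags for well above background, irregular and saturated spots, and stand-in values. Per the file headers, probe positions are on mm8. They were not converted, so no exon was assigned.

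Ratios were brought to the log2 scale, and repeated spots of a probe were averaged. A gene was represented by its brightest probe, judged by the mean log2 signal of red and green together. Of 34850 probes with a symbol, 28105 with a red processed signal of at least 25 on at least 4 of 8 arrays (18396 genes) were tested against 0 in R 4.3.3 with limma 3.58.1, with Benjamini-Hochberg adjustment over all probes. Calls needed a 2-fold change and an adjusted p under 0.01. These limits and the signal minimum follow the study's methods, but the minimum was applied to processed signals and no filter on human homologues was used. On data simulated for this one-sample comparison, with 28105 probes and 200 of them changed 3-fold, 62.5% were called and 0 false calls were made. For the slide comparison, simulated the same way, 39% were called with 6 false calls. The simulated noise was normal, independent between probes and centered on 0, without stand-in values or dye bias. These shares therefore do not cover errors from such sources. Slides were compared with limma and exact permutation. Slides were read from the array barcodes. Python 3.11.15 (pandas 2.3.3, scipy 1.17.1, numpy 2.4.6, matplotlib 3.10.9) made the tables and plots.

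The members, their roles, the gene lists and the tests were chosen with earlier results of these data known. All members are accounted for. From other lists, at most the 3 lowest and 3 highest genes were named, among those with green well above background on at least 4 arrays. Nothing states that the mice came from separate litters, so the errors measure the spread between these 8 mice. As arrays give no counts, precision rests on the number of arrays and on signal over background. Promoters were taken from the RefSeq table (GRCm38.p6) by symbol. Alternatives covered background handling, signal filters, thresholds, irregular spots, array weights, probes and each mouse left out. Those on array quality and slide 1 were chosen after seeing the data.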

Additional observations from a re-analysis of the deposited data

Results flagged for a closer look

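In each of 42 members the 8 mice were examined for a single mouse far from the others, by whether the gap from the highest or lowest mouse to its neighbour exceeded, as a share of the whole range, the 95% critical value of Dixon's test. Chance marks about 1 in 20 such groups, and 6 of the 42 were marked. *Trf* was marked for mouse 8, at -3.20 with the next mouse at -1.73, and the red signal of mouse 8 was a stand-in value. *Apoc1* was marked for mouse 7, at -2.78 with the next at -1.24. *Ambp* was marked for the same mouse, at -0.99 with the next at -0.53, on a red signal well above background. *Serpinf2* was marked for mouse 6, at -1.62 with the next at -0.20, on a stand-in value. *F9* was also marked for mouse 6, at -0.61 with the next at -0.15. *C9* was marked for mouse 5, at 2.85 with all the others at 0, on a red signal of 58.2 that was not well above background. The other mice had red stand-in values above the green signal, which fixed their ratios at 0 and so the gap. All 6 values came from mice of slide 2, of which mice 5, 6 and 7 had the grids not rated good. The part of the grids in these values was not tested.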

How the results depend on the processing

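The counts moved with settings that changed background handling, dye normalization or both, with the signal filter and with which arrays were used. Over all genes, 239 were called lower and 72 higher. The counts were 16 and 40 with normexp and loess, 952 and 3176 with median-centered signals, and 403 and 1928 with the ratio of the processed signals. Genes called lower were 366 with the filter on green and 33 with the filter on red well above background, 445 lower and 123 higher at an adjusted p of 0.05, and 512 and 263 at 1.5-fold. For the settings chosen after seeing the data, 23 genes were lower and 3 higher without the 3 arrays whose grid was not rated good, and 0 and 0 on slide 1 alone. Leaving out each mouse gave 113 to 162 lower and 42 to 62 higher. In the same order of settings, members called lower changed from 13 to 1 with normexp, to 5 with the red filter, to 3 without those 3 arrays and to 0 on slide 1 alone, and were 10 to 14 with each mouse left out. The median over members changed from -0.83 to -0.13 with normexp, and was -0.90 to -0.73 with each mouse left out. Members that differed between slides changed from 3 to 1 with normexp, and were 1 to 4 with each mouse left out, with 1 without mouse 3 or mouse 7. The other settings kept these counts within 1.5 times, and the cause of the moves was not tested. Of the means of the 42 members, 25 moved by more than their SD with normexp and 15 with median-centered signals. No paired analysis was possible because the series holds 1 group and the pool was shared by all arrays.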
